A study of Mus musculus with 30 samples.

Results

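The 9 endothelial-type junction and receptor genes Cldn5, Kdr, Esam, Tek, Tie1, Eng, Pecam1, Jam3 and Cdh5 were followed in haematopoietic stem cells of young and old mice. They are 9 of 17562 genes in the count table. They were selected on their names as junction and receptor genes of endothelium, with earlier results of these data known, so their values in old and young unjoined mice and in old and young isochronic pairs chose them. Those 2 age differences are given below as a description. Their counts of calls are printed beside the share of all genes called, and nothing is read from them, since the choice of genes bore on them. The remaining comparisons were tested. Those of joining within an age use the same unjoined and isochronic libraries and are therefore not independent of the choice. Those of the partner use the isochronic libraries, and the heterochronic age comparisons use both kinds through the strain term of the fit.

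RNA was sequenced from stem cells sorted from the marrow of male mice of strain B6 or of BoyJ, a congenic strain with another allele of the CD45 gene Ptprc. Parabiosis joins 2 mice by surgery so that they share a circulation. The 7 conditions, merged over strain, were young mice of 8 to 12 weeks left unjoined (YCNT, 3 B6 and 4 BoyJ libraries), joined to a young partner (isochronic; YISO, 2 B6 and 2 BoyJ) or joined to an old partner (heterochronic; YHET, 2 BoyJ, with 1 further labelled sample not analysed here). Old mice, of 22 months in B6 and 21 months in BoyJ, were left unjoined (OCNT, 3 B6 and 1 BoyJ), joined to an old partner (OISO, 5 B6 and 1 BoyJ) or joined to a young partner (OHET, 4 B6), and in 2 B6 libraries the old cells had lodged in the marrow of the young partner and were recovered there (OHETX). The old heterochronic libraries were thus all B6 and the young ones all BoyJ, so a comparison of the 2 rests on the strain term of the fit. The sources used here do not give the antibodies of the sort or say which libraries came from joined partners.

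Endothelial cells hold each other through tight and adherens junctions and carry receptor tyrosine kinases for vessel growth factors. Blood stem cells and endothelium arise from a common embryonic lineage, and some of these proteins stay on stem cells: Esam, Pecam1 and endoglin (Eng) are surface proteins by which stem cells can be recognised, and Tek (Tie2) on stem cells binds angiopoietin-1 in the marrow. Claudin-5 (Cldn5) seals tight junctions of vessels, VE-cadherin (Cdh5) builds their adherens junctions, Kdr is the main VEGF receptor, Tie1 is an orphan partner of Tek, Eng is a co-receptor for BMP and TGF-beta ligands, and Jam3 is a junctional adhesion molecule of the Esam kind.

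The 250 bases before the start site are shown for Cldn5 and Kdr, the members with the largest old-over-young differences, and for Tie1, which had almost none. The start sites are those of RefSeq; in the GENCODE gene models used for lengths, 212 of the 250 bases shown for Tie1 and 3 of those for Kdr lie inside the gene. They are RefSeq sequences of GRCm38.p6, 5′ to 3′ on the strand of the gene, and capitals mark the ETS core GGAA and the E-box CANNTG on either strand (GGAA reads TTCC on the other strand; in 1 place of the Tie1 stretch the 2 motifs overlap).
Cldn5 (chr16:18776597-18776846, plus strand) is written as
Cldn5: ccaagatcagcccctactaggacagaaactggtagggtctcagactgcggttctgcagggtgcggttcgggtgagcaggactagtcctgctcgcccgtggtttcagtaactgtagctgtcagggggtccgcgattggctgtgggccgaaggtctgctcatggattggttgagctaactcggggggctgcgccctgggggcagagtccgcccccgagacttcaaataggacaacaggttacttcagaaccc
Kdr (chr5:75978456-75978705, minus strand) is written as
Kdr: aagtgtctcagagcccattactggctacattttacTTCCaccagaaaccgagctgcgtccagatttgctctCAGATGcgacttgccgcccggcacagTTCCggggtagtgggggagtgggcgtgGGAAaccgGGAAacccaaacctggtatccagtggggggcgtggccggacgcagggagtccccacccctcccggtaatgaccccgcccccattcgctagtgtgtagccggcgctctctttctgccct
Tie1 (chr4:118489850-118490099, minus strand) is written as
Tie1: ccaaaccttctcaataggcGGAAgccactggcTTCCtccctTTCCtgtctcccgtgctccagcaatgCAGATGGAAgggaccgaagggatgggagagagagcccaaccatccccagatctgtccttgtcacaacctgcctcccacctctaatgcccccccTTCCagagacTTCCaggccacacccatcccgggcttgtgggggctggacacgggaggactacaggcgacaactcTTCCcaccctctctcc
The Cldn5 stretch held 0 matches to GGAA, the Kdr stretch 4 and the Tie1 stretch 7. Those of Tek and Eng, not shown, held 2 and 3, and 93.4% of 32851 mouse promoters of this length held at least 1. The E-box was in the Kdr, Tie1 and Eng stretches once each, in that of Tek 2 times, and in 66.2% of all promoters. Among 6 motifs searched on both strands, the longer ETS form AGGAAG, which contains GGAA, matched once in Tie1 and 2 times in Eng and was in 29.5% of all promoters. The SOX motif ACAAAG matched once each in Tek and Eng (16.5% of all promoters), and the GATA motif AGATAA (9.99%) and the AP-1 motif TGANTCA (6.75%) matched in none of the 5 members in the table. A match is a run of letters and not a shown binding site. Of the 9 members, Cldn5, Kdr, Tek, Tie1 and Eng were in the promoter table.

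The 29 libraries held 7659468 to 30932977 counts. For 10 of them the 2 labels of a sample, its title and its description, name different libraries, and columns were matched by the library code in the title. The other 19 are libraries on which both labels meet, and values over these are given for some of the results only. Others differ as well: the mean of Jam3 in OHET was 12.4 CPM over all libraries and 20.3 CPM over those with agreeing labels. One library, OHETB6X replicate 1, stood apart: it was the shallowest, and its 8 neutrophil markers summed to 2729 CPM (counts scaled to library size, the usual unit of level) against a median of 38.3 over all libraries. The next highest neutrophil sums were 797.4 CPM in OISOB6 replicate 5, 528.5 in OHETB6 replicate 4 and 506.9 in OISOB6 replicate 1. The lowest was 2.09 CPM, in YISOB6 replicate 1. The 12 stem cell markers were detected in every library and summed to 3347 to 5358 CPM. Stromal markers summed to 9.97 to 42.4, macrophage markers to 5.74 to 42.9, erythroid markers to 3.84 to 241.5 and B cell markers to 9.04 to 53.5 CPM, the highest erythroid and B cell sums again in OHETB6X replicate 1. P-values measure the spread between these libraries, since the sources used here do not say which came from separate animals. Of 17 endothelial markers outside the 9 genes, 15 were in the table. Among the defining ones, Lyve1 was at 0 in 21 of 29 libraries, Stab2 at 0 in 13 and Plvap at 0 in 7, with highest values of 1.63, 0.950 and 3.97 CPM. Flt4 had a median of 1.55 CPM and a highest value of 13.7 CPM, in an OCNT library. Emcn was at 20.2 to 71.4 CPM, and Gpihbp1 and Sox17 were not analysed here.

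Per kilobase of exon the members' levels spanned over 3 orders of magnitude. Eng was highest, with a mean over the 29 libraries of 30.4 CPM per kilobase, at percentile 91.8 of 16056 tested genes. Tek followed with 20.4, Esam with 16.0, Tie1 with 11.2, Pecam1 with 10.9, Cldn5 with 5.90, Jam3 with 3.02 and Kdr with 1.34 CPM per kilobase. Cdh5 was last at 0.0243 CPM per kilobase, percentile 1.09. The receptors Eng and Tek and the adhesion protein Esam were thus among the better expressed genes of these cells, and VE-cadherin was close to absent. In old libraries alone Cldn5 had a mean of 10.05 CPM per kilobase, against 0.792 in young ones, so that its place among the members changed with age.

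Cldn5 (ENSMUSG00000041378, GRCm38 chromosome 16, 18776847 to 18778262) showed the widest spread. In young unjoined mice it was at 0.0494 to 1.02 CPM (median 0.468, n = 7), and in the 4 young isochronic libraries at 0.181, 0.647, 1.40 and 4.92 CPM. The 2 young heterochronic libraries had 0.4997 and 3.66 CPM. Old unjoined libraries stood at 10.4, 10.9, 13.1 and 21.6 CPM, and old isochronic ones at 8.24 to 21.3 CPM (median 18.0, n = 6). Old heterochronic cells had 5.68, 8.35, 17.9 and 21.7 CPM, and those recovered from young marrow 3.15 and 12.6 CPM. Of 16 old libraries, 15 lay above the highest of 13 young ones. The exception was OHETB6X replicate 1, and the highest young value came from YISOBJ replicate 1, 1 of the libraries with conflicting labels. On the 19 libraries with agreeing labels the lowest old value was 8.24 and the highest young value 3.66 CPM, with no overlap. Counts were small in young libraries: Cldn5 had under 10 counts in 5 libraries, the fewest being 1.

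**Figure D1:**
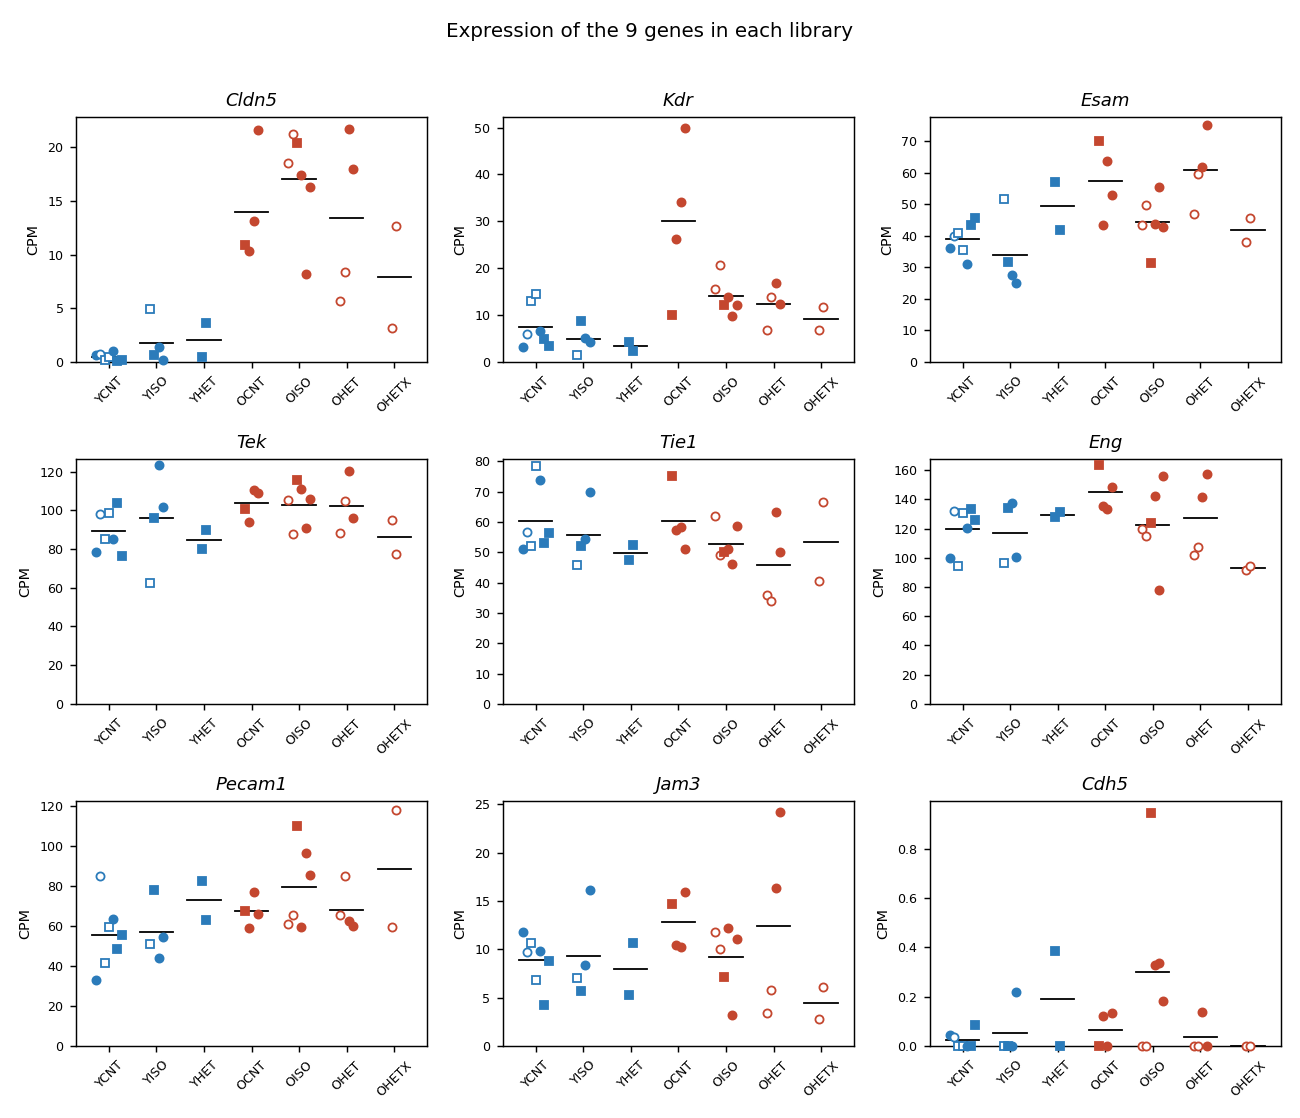
Expression in CPM (y axis, from 0, own scale per gene) of the 9 genes in each of 29 libraries by condition (x axis). Circles are B6 and squares BoyJ; filled points are libraries on which both labels meet and open points those with conflicting labels; the line is the mean. Cldn5 is under 5 CPM in every young library and between 3.15 and 21.7 CPM in old ones, while Tek, Tie1 and Eng overlap between ages.

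Kdr (ENSMUSG00000062960, chromosome 5, 75932827 to 75978458) was at 3.26 to 14.5 CPM in young unjoined mice (median 5.99, n = 7). It was at 1.52, 4.20, 5.19 and 8.76 CPM in young isochronic and at 2.42 and 4.34 CPM in young heterochronic libraries. In old unjoined mice the 3 B6 libraries had 26.2, 34.0 and 49.8 CPM and the BoyJ library 10.1 CPM. Old isochronic libraries ranged from 9.84 to 20.6 CPM (median 13.1, n = 6). Old heterochronic cells had 6.72, 12.3, 14.0 and 16.8 CPM, and those from young marrow 6.70 and 11.8 CPM. Old unjoined B6 mice were thus the highest, and the other old conditions lay between them and the young. Young and old overlapped most through 2 young unjoined BoyJ libraries with conflicting labels, at 13.1 and 14.5 CPM. YISOBJ replicate 2, at 8.76 CPM, also lay above OHETB6X replicate 1 and OHETB6 replicate 1, at 6.70 and 6.72 CPM. Both of these old libraries have conflicting labels. Over the 19 libraries with agreeing labels all 10 old values, from 9.84 CPM, lay above all 9 young ones, up to 8.76 CPM. Over these 19 libraries 0.604% of all genes were higher in old cells without overlap, and Cldn5 and Kdr were the 2 members among them, by values that chose them.

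The adhesion proteins Esam, Pecam1 and Jam3 overlapped between ages. Esam (ENSMUSG00000001946, chromosome 9) was at 31.0 to 45.7 CPM in young unjoined mice (median 40.02, n = 7) and at 43.3, 52.9, 63.6 and 69.9 CPM in old unjoined ones. Old heterochronic libraries reached 46.9, 59.4, 61.9 and 75.1 CPM, and old isochronic ones 31.4 to 55.6 CPM. Of 16 old libraries 5 lay above the highest young one, 57.0 CPM. Pecam1 (ENSMUSG00000020717, chromosome 11), which binds itself between cells, ranged from 33.1 to 85.2 CPM in young unjoined and from 59.4 to 110.3 CPM in old isochronic libraries. Jam3 (ENSMUSG00000031990, chromosome 9) was spread widely within a condition: old heterochronic libraries had 3.45, 5.75, 16.3 and 24.2 CPM, and the 2 lower values belong to libraries with conflicting labels.

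Cdh5 (ENSMUSG00000031871, chromosome 8, 104101625 to 104144511) had 65 counts in all and none in 17 of 29 libraries, and it did not pass the filter on low counts. A count of 0 allows up to 0.0878 to 0.410 CPM at these depths (3 counts of the total, counting error only). The most was 22 counts, 0.947 CPM, in OISOBJ replicate 1. The gene that defines vascular adherens junctions was therefore not detectable in most libraries in which its junction partners were.

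The receptors Tek, Tie1 and Eng varied little. Tek (ENSMUSG00000006386, chromosome 4) had condition means from 84.9 ± 7.17 CPM (SD, n = 2, YHET) to 103.6 ± 7.67 CPM (n = 4, OCNT). Tie1 (ENSMUSG00000033191, chromosome 4) lay between 45.8 ± 13.8 CPM (n = 4, OHET) and 60.5 ± 10.3 CPM (n = 4, OCNT). Eng (ENSMUSG00000026814, chromosome 2) lay between 93.1 ± 1.86 CPM (n = 2, OHETX) and 145.1 ± 13.7 CPM (n = 4, OCNT). For these 3 genes the condition with the highest mean over all libraries was the old unjoined one. Over libraries with agreeing labels, Tek and Eng were highest in OHET, at 108.1 and 149.3 CPM (n = 2). Tie1 remained highest in OCNT there, and its lowest mean was 49.95 CPM, in YHET. Over all libraries the old unjoined range touched that of the next condition in the order for Tek and Tie1. For Eng the lowest old unjoined value, 133.6 CPM, was above the young heterochronic libraries next in order, but below the highest old isochronic, old heterochronic and young isochronic values.

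The age differences of unjoined and isochronic mice, which bore on the choice of the genes, are given as fitted log2 fold changes with standard errors. In OCNT over YCNT they were 4.83 (SE 0.68) for Cldn5, 2.05 (SE 0.49) for Kdr, 0.62 (SE 0.19) for Esam, 0.45 (SE 0.42) for Jam3, 0.32 (SE 0.22) for Pecam1, 0.29 (SE 0.16) for Eng, 0.19 (SE 0.14) for Tek and 0.00 (SE 0.18) for Tie1. Of the 8 members that passed the filter, Cldn5 and Kdr were 2 under the call threshold (edgeR quasi-likelihood F-test, Benjamini-Hochberg adjusted p under 0.05), beside 2.11% of all genes. In OISO over YISO the values were 3.13 (SE 0.78) for Cldn5, 1.54 (SE 0.50) for Kdr, 0.53 (SE 0.24) for Pecam1 and 0.49 (SE 0.20) for Esam, with the others from -0.10 to 0.09. There 1 of 8, Cldn5, was under it, beside 1.45% of all genes. Both counts follow from values that chose the genes and are no evidence on them. Of the 12 stem cell markers, 11 had a positive log2 fold change in OCNT over YCNT (median 0.43, beside -0.02 for all genes; Slamf1 1.365, Procr 0.99 and Gata2 0.44 were called) and 12 in OISO over YISO (median 0.32, none called). Their part in the members' differences was not tested. Kdr in OCNT over YCNT missed the threshold on the compared conditions alone and without any 1 of YB6CNT replicates 1, 2 and 3 and OB6CNT replicates 2 and 3. Cldn5 in OISO over YISO missed it without any 1 of 8 libraries (OISOB6 replicates 1, 2, 3 and 5, OISOBJ replicate 1, YISOB6 replicates 1 and 2 and YISOBJ replicate 2), and was 4.46 (SE 0.79) without YISOBJ replicate 1.

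Heterochronic mice gave an age comparison in other libraries, but its fitted values are not independent of the choice of genes. The OHET libraries were all B6 and the YHET ones all BoyJ, so the strain term came from the unjoined and isochronic libraries. The estimate of spread was shared with those libraries as well. In OHET over YHET the log2 fold change of Cldn5 was 2.50 (SE 1.10; 95% interval 0.21 to 4.79; edgeR adjusted p = 0.474), a fold of 5.66. All 4 old libraries, at 5.68 to 21.7 CPM, lay above both young ones, at 0.4997 and 3.66 CPM. That of Kdr was 1.92 (SE 0.76; interval 0.33 to 3.50; edgeR adjusted p = 0.407), a fold of 3.77, again without overlap. Of all genes, 5.76% were likewise higher in OHET without overlap with the 2 young libraries, and Cldn5 and Kdr were the 2 of 8 members among them. None of the 8 members passed: 0 by edgeR, DESeq2 and limma-voom, and 2, Cldn5 and Kdr, had an unadjusted p under 0.05. Over all genes 0.118% were called, and 1512 of 16068 had an unadjusted p under 0.05. The Cldn5 value was 1.64 without YHETBJ replicate 1 and 4.495 without YHETBJ replicate 3, so it depended on which of the 2 young libraries was kept. Esam was at 0.52 (SE 0.30, interval -0.10 to 1.14, edgeR adjusted p = 0.608) with overlapping libraries, and Jam3 at 0.23 (SE 0.67). Tek (0.21, SE 0.22), Eng (0.02, SE 0.24), Pecam1 (0.02, SE 0.35) and Tie1 (-0.14, SE 0.28) were near 0. The 95% intervals of these last genes, from Tek to Tie1, stayed within -0.74 and 0.74.

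Old cells recovered from young marrow were set against young cells of the same kind of pair, with the same YHET libraries and strain term. In OHETX over YHET, Cldn5 was at 1.75 (SE 1.17; interval -0.68 to 4.18), Kdr at 1.497 (SE 0.82; interval -0.21 to 3.20) and Jam3 at -1.24 (SE 0.76) on the log2 scale. No member passed in edgeR, DESeq2 or limma-voom, and none had an unadjusted p under 0.05. Over all genes 0.0249% were called, and 1519 of 16068 had an unadjusted p under 0.05. The Cldn5 value was 0.40 without OHETB6X replicate 2 (leaving the library with 2729 CPM of neutrophil markers), 0.90 without YHETBJ replicate 1, 3.75 without YHETBJ replicate 3 and -1.22 when columns were matched by description. The part of neutrophils in the result was not tested.

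**Figure D2:**
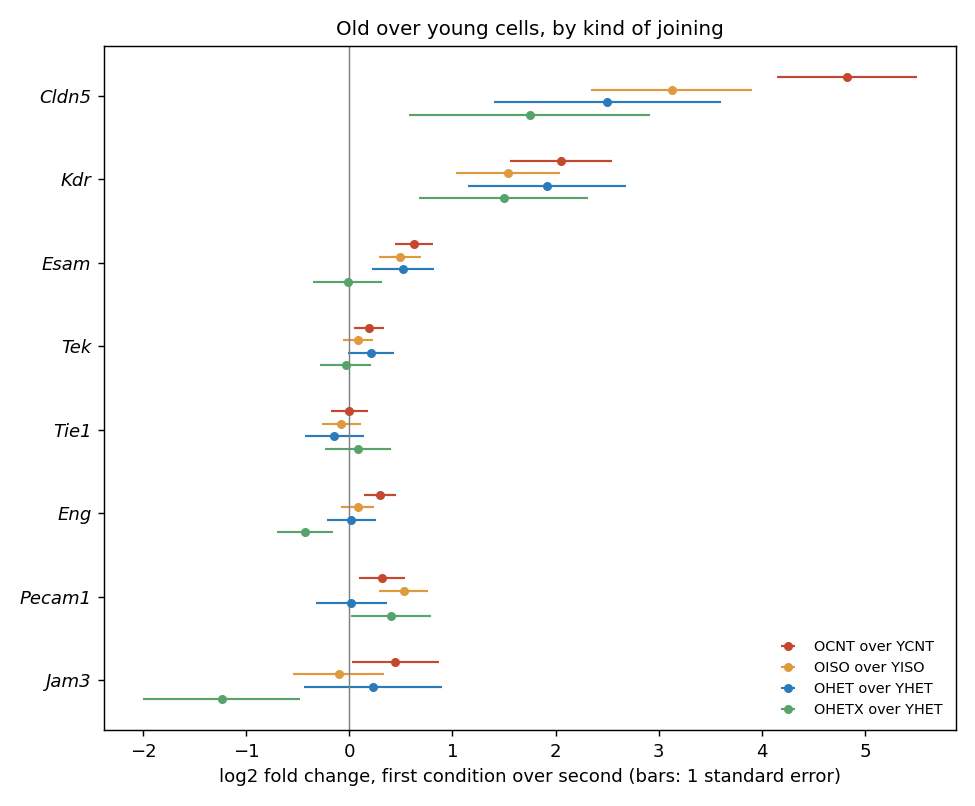
Fitted log2 fold change (x axis; bars, 1 standard error) of old over young cells for the 8 genes that passed the filter (y axis), in unjoined (red), isochronic (orange) and heterochronic mice (blue) and in old cells recovered from young marrow (green). Cldn5 lies between 1.75 and 4.83 and Kdr between 1.497 and 2.05 in all 4 comparisons, while Tie1 lies between -0.14 and 0.08; the blue and green comparisons share their young libraries.

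Joining itself was read within an age. In old mice (OISO over OCNT) the log2 fold change of Kdr was -1.09 (SE 0.45; interval -2.03 to -0.16; edgeR adjusted p = 1), with 9.84 to 20.6 CPM after joining and 10.1 to 49.8 CPM in unjoined mice. The 3 unjoined B6 values exceeded all 6 isochronic ones, and the unjoined BoyJ value did not. In young mice (YISO over YCNT) Cldn5 was at 1.99 (SE 0.69; interval 0.55 to 3.43; edgeR adjusted p = 0.369). It was 0.61 without YISOBJ replicate 1, the highest young library, -0.04 in B6 libraries alone, 0.58 on the 19 libraries with agreeing labels and -2.72 when columns were matched by description. No member passed in either comparison by edgeR, DESeq2 or limma-voom, and 1 in each had an unadjusted p under 0.05. The share of all genes called was 0% in both by edgeR, with 677 and 1643 genes at an unadjusted p under 0.05; DESeq2 called 42 and 84 genes and limma-voom 124 and 0. The difference between the ages in the effect of joining was -1.70 (SE 0.94; edgeR adjusted p = 0.949) for Cldn5 and -0.51 (SE 0.64; adjusted p = 0.992) for Kdr. No member passed in it by the 3 tools, none had an unadjusted p under 0.05, and 0% of all genes were called (833 at an unadjusted p under 0.05; DESeq2 24, limma-voom 0).

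The age of the partner was read against isochronic mice. In old cells (OHET over OISO) Esam was at 0.48 (SE 0.19; interval 0.09 to 0.87; edgeR adjusted p = 0.503), with 46.9 to 75.1 CPM beside a young partner and 31.4 to 55.6 CPM beside an old one. In young cells (YHET over YISO) it was at 0.45 (SE 0.26; interval -0.09 to 0.99; edgeR adjusted p = 0.859). Cldn5 was at -0.39 (SE 0.65; interval -1.75 to 0.97) and Kdr at -0.17 (SE 0.46; interval -1.13 to 0.78) in old cells. Beside an old partner, young cells had 0.24 (SE 0.90) for Cldn5 and -0.55 (SE 0.66) for Kdr. In both comparisons 0 members passed by edgeR, DESeq2 and limma-voom. An unadjusted p under 0.05 was reached by Esam in old cells and by no member in young ones. Over all genes edgeR called 0% in each (1367 and 962 at an unadjusted p under 0.05), DESeq2 30 and 59 genes, and limma-voom 0. For the difference between the ages in the effect of the partner, edgeR called 0% of genes (1222 at an unadjusted p under 0.05; DESeq2 42, limma-voom 0) and no member by any of the 3 tools, with no member at an unadjusted p under 0.05.

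Place of recovery was compared in old heterochronic cells. In OHETX over OHET, Jam3 was at -1.47 (SE 0.63; interval -2.79 to -0.15; edgeR adjusted p = 0.296), Esam at -0.54 (SE 0.26; adjusted p = 0.365) and Eng at -0.45 (SE 0.22; adjusted p = 0.359). The 2 libraries from young marrow were below all 4 others for Esam, at 38.02 and 45.6 CPM, and for Eng, at 91.8 and 94.4 CPM, and they overlapped for Jam3, at 2.735 and 6.13 CPM. Of all genes, 7.16% were lower in OHETX without overlap in the same way. These 3 members had an unadjusted p under 0.05, as did 2188 of the 16068 genes tested. By edgeR, DESeq2 and limma-voom 0 members passed, where edgeR called 0.218% of all genes. Jam3 was at -0.91 without OHETB6 replicate 4 and at -0.55 when columns were matched by description. Both libraries from young marrow have conflicting labels. Between strains (BoyJ over B6, over all conditions) the members' log2 differences ran from -0.42 (Jam3, SE 0.32) to 0.22 (Esam, SE 0.15). None passed by edgeR, DESeq2 or limma-voom, and none had an unadjusted p under 0.05. Over all genes 0.0124% were called, and 1090 of 16068 had an unadjusted p under 0.05.

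**Figure D3:**
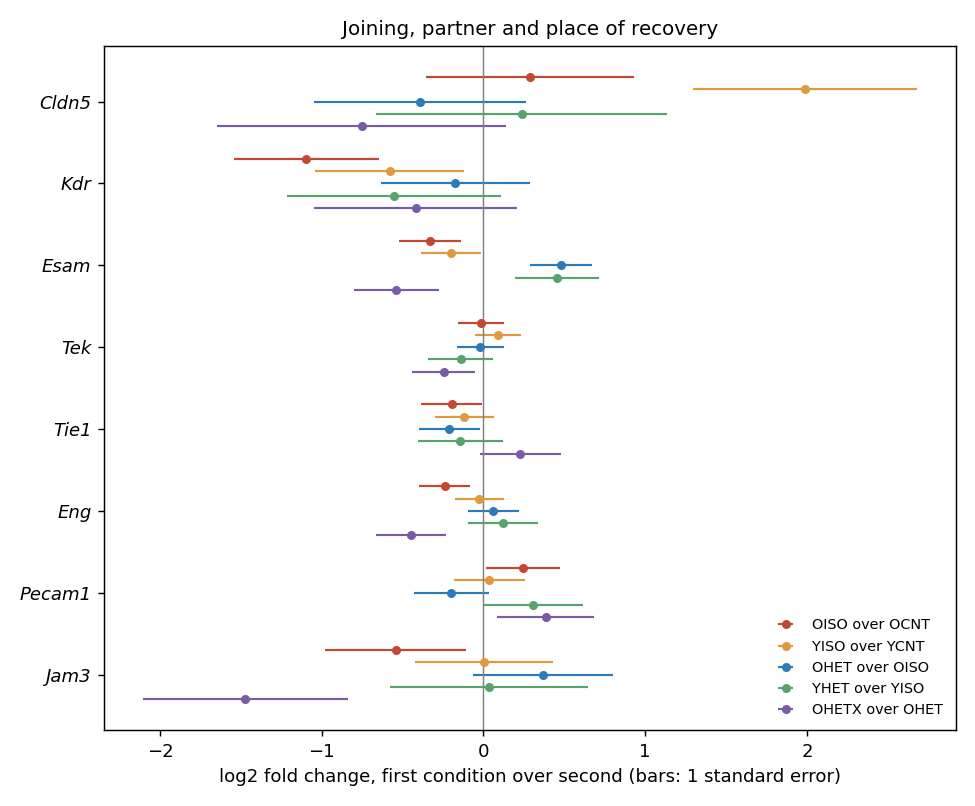
Fitted log2 fold change (x axis; bars, 1 standard error) of the 8 genes (y axis) for joining in old (red) and young mice (orange), for the age of the partner in old (blue) and young cells (green), and for old cells from young over own marrow (purple). Cldn5 in young joining, Kdr in old joining and Jam3 by place of recovery lie past 1, and none passed the threshold.

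Ligands and signalling partners of these receptors were read from lists of known genes. Of 17 angiopoietin-Tie genes, 0 passed in any of the 12 comparisons by edgeR. The ligand Angpt1 was abundant in the stem cells themselves, at a mean of 1482 CPM, and its log2 fold change was 0.16 (SE 0.10) in OCNT over YCNT and 0.01 (SE 0.16) in OHET over YHET. Of 19 VEGF genes tested, none passed in the 10 comparisons kept for tests. Nrp2, a VEGF co-receptor, was 1.65 (SE 0.43) higher in OCNT over YCNT, and Prkca, a kinase downstream of Kdr, 0.77 (SE 0.19) higher in OISO over YISO. The oxygen-regulated factor Hif1a was at -0.62 (SE 0.19; edgeR adjusted p = 0.254) in OHET over YHET. The VEGF list's median in that comparison was 0.10, beside 0.06 for all genes.

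Among 27 tested genes around endoglin, the BMP receptor Bmpr1a was higher in OHET over YHET, a comparison of B6 with BoyJ libraries that rests on the strain term. It was at 47.9 to 107.3 CPM in OHET and at 19.4 and 21.3 CPM in YHET, with no overlap, which gave 1.93 on the log2 scale (SE 0.34; by edgeR, adjusted p = 0.00996). It was the only member of that list to pass in a comparison kept for tests, and the list's median was 0.21 beside 0.06 for all genes. Over all genes 0.118% were called in OHET over YHET, and 5.76% were higher in OHET without overlap. The lists were chosen with earlier results of these data known. In the described comparisons it was 2.40 (SE 0.20) in OCNT over YCNT and 2.56 (SE 0.24) in OISO over YISO. Bmp4, a BMP ligand, and Id2, a BMP target, were 3.04 (SE 0.74) and 1.72 (SE 0.42) higher in OISO over YISO. Of 31 tested junction partners, Jam2, the binding partner of Jam3, was higher in OHET over YHET by 1.99 (SE 0.40, edgeR adjusted p = 0.0372). Its levels were 69.6 to 225.2 CPM against 32.1 and 44.7 CPM, and it was 2.11 (SE 0.24) and 1.72 (SE 0.27) higher in OCNT over YCNT and OISO over YISO. Jam3 itself was at 0.23 (SE 0.67) in OHET over YHET. The junction list's median there was 0.48. Both calls were lost without YHETBJ replicate 1 (Bmpr1a 1.85, adjusted p = 0.401; Jam2 1.75, adjusted p = 0.603) and without YHETBJ replicate 3 (adjusted p = 0.104 and 0.113), and Jam2 passed under 20 of 37 alternatives in all. Jam2 also missed the threshold without any 1 of YB6CNT replicates 1 and 3, YBJCNT replicate 2, YISOBJ replicate 2, OB6CNT replicate 2, OISOB6 replicates 1, 3, 4 and 5, OISOBJ replicate 1 and OHETB6 replicates 2 and 3.

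Transcription factors shared by endothelium and stem cells did not pass in the comparisons kept for tests (0 of 20 by edgeR). Erg and Lmo2 were at means of 529.4 and 592.1 CPM, with log2 fold changes of 0.19 (SE 0.15) and 0.17 (SE 0.15) in OHET over YHET. In OCNT over YCNT, Mef2c (0.61, SE 0.09), Gata2 (0.44, SE 0.09), Ets1 (0.80, SE 0.20) and Fli1 (0.39, SE 0.10) were higher, and Gata1, which drives erythroid and megakaryocyte fate, was at -2.52 (SE 0.68). None of the 20 passed in OISO over YISO.

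Endothelial markers other than the 9 genes were set beside these results. Their summed level was 290.0 to 362.6 CPM in OCNT, 197.1 to 282.5 in OISO, 200 to 266.5 in OHET and 109.8 to 204.4 in OHETX. In young mice it was 108.1 to 204.6 CPM in YCNT, 112.4 to 177.1 in YISO and 134.5 to 197.6 in YHET. Vwf, which platelets and endothelium share, was at 205.9 ± 33.0 CPM (SD, n = 4) in OCNT and 44.8 ± 12.2 CPM (n = 7) in YCNT. Without Vwf, a choice made after its values were seen, the sum was 115.2 to 139.8 CPM in OCNT and 86.0 to 150.5 in YCNT. It was 77.6 to 124.7 CPM (median 92.1) in OHET and 93.1 to 138.2 CPM (median 115.7) in YHET. The median of the sum was thus lower in the old cells of that pair. Gene by gene the direction was the other way: of the 14 tested, Vwf included, 10 had a positive log2 fold change in OHET over YHET. Their median there was 0.34, beside 0.06 for all genes, of which 45.6% were negative. Ramp2 (4.02, SE 0.96, OCNT over YCNT) and Clec14a (2.35, SE 0.58, OISO over YISO) were the other endothelial markers that passed there, and none of 14 tested passed in the comparisons kept for tests by edgeR. The vessel receptor Flt1 had a median of 0.177 CPM and a highest value of 6.19 CPM, in an OHETX library. Platelet markers, Vwf included, summed to 657.6 to 1200 CPM in old and 236.2 to 432.5 CPM in young libraries, without overlap. Large parts of the sum came from Itgb3 (mean 336.5 CPM in OCNT, 107 in YCNT), Selp (254.4 and 25.7) and Vwf. Of the 12 genes, 8 had a positive log2 fold change in OCNT over YCNT (median 0.25) and 10 in OISO over YISO (median 0.75). In OHET over YHET all 12 did (median 1.42), and in OHETX over YHET 9 did (median 0.73). The medians of all genes were -0.02, 0.003, 0.06 and -0.0004 in the same order, and 52.6%, 49.8%, 45.6% and 50% of all genes were negative. Selp, a member of that list, passed in OHET over YHET (2.93, SE 0.45, edgeR adjusted p = 0.00204). It also passed in OHETX over YHET (2.72, SE 0.47, edgeR adjusted p = 0.0271). Over all genes 0.118% and 0.0249% were called in these comparisons. The part of other cell types in the values of the 9 genes was not tested, and in bulk RNA more cells of a type and more RNA per cell cannot be told apart.

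**Figure D4:**
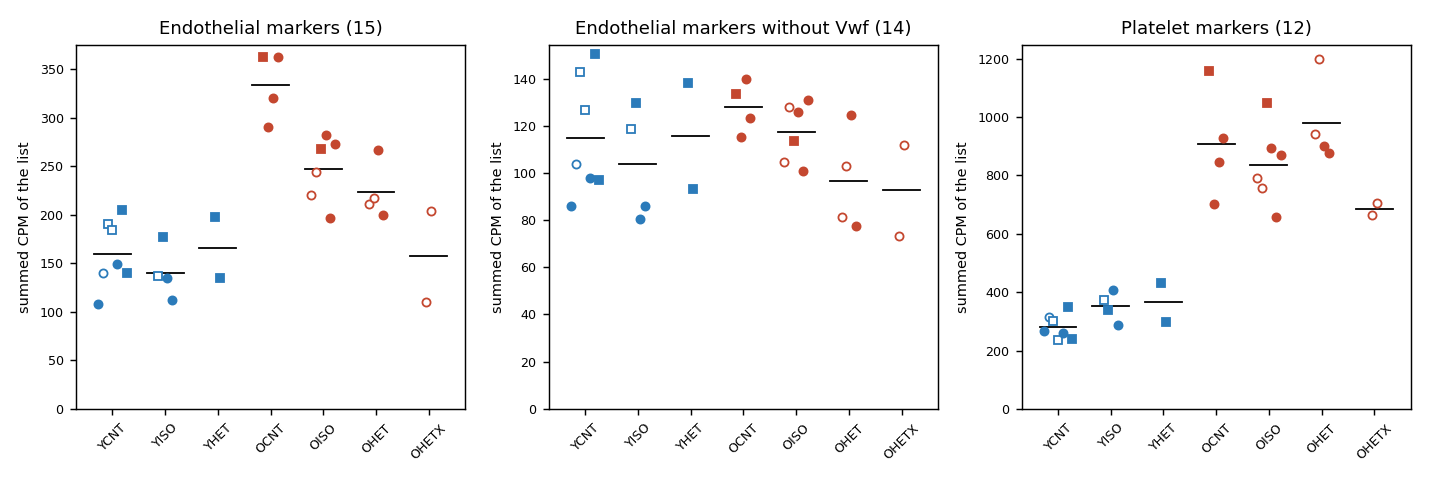
Summed CPM (y axis, from 0) of 15 endothelial markers, of 14 without Vwf, and of 12 platelet markers in each library by condition (x axis); symbols as in the plot of the 9 genes, and the line is the mean. Old unjoined libraries are highest for the endothelial sum (290.0 to 362.6 CPM), the ages overlap without Vwf, and the platelet sum does not overlap between old and young libraries.

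The genes whose pattern over the 29 libraries was nearest to that of Cldn5 were Clca3a1, Selp, C4b, Eya4 and Agtr1a. The measure was the mean absolute difference of log2 CPM, each gene centred on its own mean, among 11252 genes. It was 0.916, 0.966, 0.995, 1.05 and 1.06, against a median of 2.13 over all of them. Each had a higher mean in old than in young libraries, for Clca3a1 407.7 against 48.1 CPM and for Selp 236.8 against 28.7 CPM. That largely follows from choosing genes by likeness to Cldn5 and is no result of its own. Libraries share depth and preparation, and nothing on shared function follows from the likeness. Nearest to Kdr were Pclo (0.494), Sfrp1 (0.517) and Neo1 (0.517), against a median of 0.960 over all. Each was likewise higher in old libraries, which again largely follows from the choice by likeness. Esam lay nearest to Camk2d (0.180), Tek to Jak1 (0.130), Tie1 to Abca2 (0.171), Eng to Adcy7 (0.139), Pecam1 to Akap13 (0.244) and Jam3 to Mpdz (0.373).

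**Figure D5:**
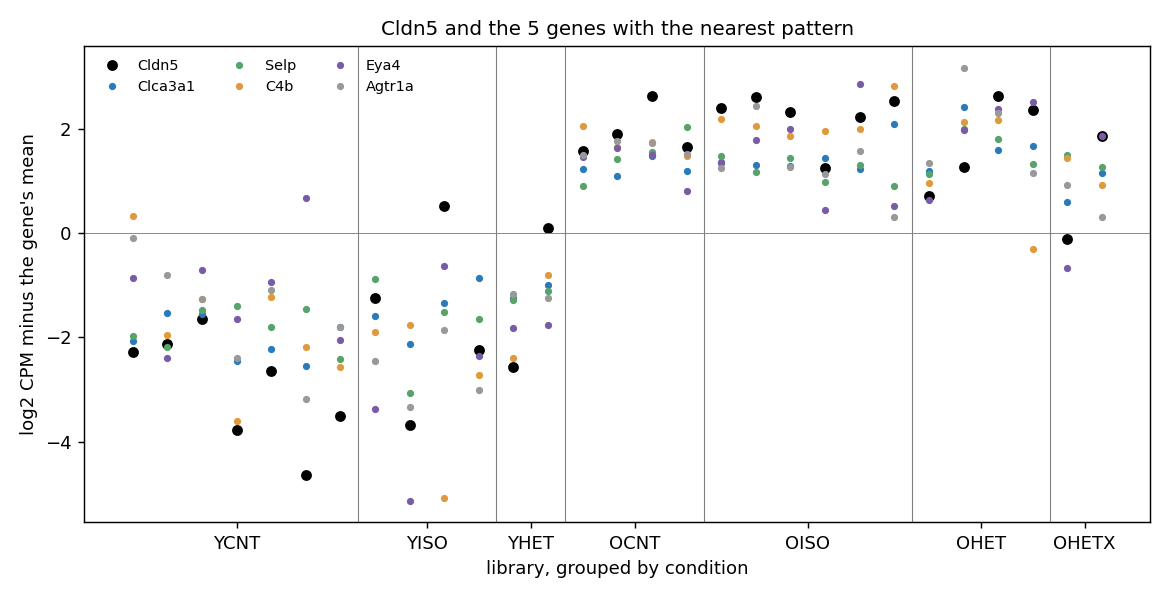
Log2 CPM minus the gene's mean over 29 libraries (y axis) for Cldn5 (black) and its 5 nearest genes (colours), by library grouped by condition (x axis). Cldn5 and the 5 genes lie above their means in most old libraries and below them in most young ones, with wide scatter among the young.

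In the authors' deposited table of young over old isochronic mice, Cldn5 had a log2 fold change of -1.93 (adjusted p = 8.52e-05) and Kdr one of -1.03 (adjusted p = 0.0426), first condition over second. Over the authors' deposited tables, which number 11, these were the only values of the 9 genes with an adjusted p under 0.05. For young over old heterochronic cells the authors' deposited table gave -1.05 (adjusted p = 0.312) for Cldn5 and -0.84 (adjusted p = 0.231) for Kdr. The deposited values were read as shrunken, and their size is not compared with the fitted values above.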

How the data were processed

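RNA of sorted stem cells was sequenced after a low-input library preparation, per the labels' protocols. The authors used Salmon and DESeq2 on GRCm38, per the submitters' processing notes, which give no versions. The deposited count table holds estimated counts per gene, here rounded to whole numbers. The authors' deposited comparison tables hold log2 fold changes with adjusted p-values, and a test score per gene, whose product with the standard error gave the unshrunken difference used to check the matching of columns. The deposited fold changes differ from that product in 49.4% to 81.8% of genes, by table, and were read as shrunken.

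Of 30 columns, 29 were used, matched to samples by the library code in the title; 1 column was left out, and 1 YHET sample was not analysed here. Title matching followed the authors' deposited tables more closely than description matching in 11 of 11 tables (r across genes with a mean count over 100, 0.74 to 0.841 against -0.149 to 0.736; genes are not independent replicates).

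Genes were filtered by expression and 16068 were tested with edgeR 4.0.16 (TMM, quasi-likelihood F-test, robust) with condition and strain as terms, 21 residual degrees of freedom, and Benjamini-Hochberg adjustment over all genes; a call is an adjusted p under 0.05. DESeq2 1.42.0, limma 3.58.1 (voom with quality weights), other scaling, no filter, no strain term, fewer libraries and leaving out each library were tried. CPM used TMM-scaled totals. The fit was tested on simulated data. The members and lists were chosen with earlier results of these data known. Named list genes were those called in a comparison kept for tests or, where none was, the 2 with the highest mean level; genes called in the described comparisons are given besides, chosen after their values were seen. Nearest genes were the 5 (Cldn5) or 3 (others) of smallest distance.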

Additional observations from a re-analysis of the deposited data

Results flagged for a closer look

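In 3 of 45 groups of 4 to 10 libraries, the gap of 1 library to the others was large relative to the group's range; chance flags about 1 group in 20. All 3 concern Cdh5, which had no counts in most libraries. A single value above 0 among zeros always meets this rule, as in YISO and OHET. Cdh5 was at 0.217 CPM in YISOB6 replicate 2, where the other young isochronic libraries were at 0. It was at 0.947 CPM in OISOBJ replicate 1, where 2 of 6 old isochronic libraries were at 0 and the next highest was at 0.336 CPM. In OHETB6 replicate 3 it was at 0.138 CPM, where the other old heterochronic libraries were at 0. The last value rests on 3 counts, and a 0 in OHETB6 replicate 2 allows up to 0.236 CPM, so that library cannot be told apart from the others.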

How the results depend on the processing

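The number of the 9 genes called in OCNT over YCNT was 2, 3 with DESeq2 (Esam besides), and 1 when columns were matched by description (Kdr). It was also 2 on the compared conditions alone, there Cldn5 and Esam, and it ranged from 1 to 3 when 1 library was left out. In OISO over YISO it was 1, and 2 by description, 2 with DESeq2, and 0 to 1 with 1 library left out. In the other 10 comparisons it stayed at 0 under each alternative run. These 2 comparisons bore on the choice of genes, so their counts are no support for it. Over 38 alternatives the log2 fold change of Cldn5 lay between 1.93 and 5.18 in the first and between 2.55 and 4.62 in the second. In OHET over YHET it lay between 1.64 and 4.495 over 37 alternatives and was called in 0. Bmpr1a in OHET over YHET was not called by description (1.75), with limma-voom (1.92) or on the compared conditions alone (1.87). The cause of these changes was not tested.

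Over all genes the calls depended on the tool. With edgeR, DESeq2 and limma-voom they numbered 339, 583 and 1154 in OCNT over YCNT, 233, 595 and 218 in OISO over YISO, 19, 189 and 6 in OHET over YHET, 4, 166 and 0 in OHETX over YHET, 35, 476 and 0 in OHETX over OHET, and 2, 22 and 4 for strain. With 1 library left out they ranged from 165 to 373, 108 to 290, 0 to 48, 0 to 29, 7 to 177 and 2 to 4 in the same order, and in OISO over OCNT from 0 to 24. By description they were 129, 138, 0, 0, 0 and 0; on the compared conditions alone 489, 425, 3, 1 and 0 for the first 5. Agreeing labels alone gave 221 and 116 for the first pair, and B6 libraries alone 131 and 242. Description matching ran on 29 columns rather than 30. No paired analysis was possible because the replicate numbers were given in accession order and pair no samples. Cldn5 had under 10 counts in 5 libraries and Cdh5 in 27, so counting error is large there.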
